A study of Mus musculus with 31 samples.

Results

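The 10 genes described here encode transcription factors of the CCAAT/enhancer-binding protein (C/EBP) family, Cebpa, Cebpb, Cebpd and Cebpg, and of the Krüppel-like factor (KLF) family, Klf2, Klf3, Klf4, Klf6, Klf10 and Klf13. They were chosen by name, with earlier results of these data known. Their shares and medians set beside those of all tested genes are therefore descriptions. All 10 were found by Ensembl identifier in both count tables, which hold 35275 identifiers in experiment 1 and 54532 in experiment 2. All 10 passed the filter on low counts in both experiments, among 12662 and 13313 tested genes. RNA came from bone marrow-derived macrophages of C57BL/6J mice, male and aged 6 to 12 weeks, grown with medium conditioned by L-929 cells, a fibroblast line that supplies macrophage colony-stimulating factor. Experiment 1 had 7 groups of 3 libraries, namely Dex + dBRD9 + LPS, Dex + iBRD9 + LPS, dBRD9 + LPS, iBRD9 + LPS, Dex + LPS, LPS alone and vehicle. Experiment 2 had 5 groups of 2 libraries, namely Dex + dBRD9 + IFNγ + LPS, dBRD9 + IFNγ + LPS, Dex + IFNγ + LPS, IFNγ + LPS and vehicle. Dex is dexamethasone, a synthetic glucocorticoid, given at 1 µM. iBRD9 is an inhibitor of the bromodomain protein BRD9, given at 3 or 10 µM, and the labels do not say which dose each library had. dBRD9 is a compound that degrades the BRD9 protein, given at 250 nM. The compounds were given overnight, and lipopolysaccharide (LPS), a bacterial cell wall component, followed at 100 ng/ml for 3 h. For IFNγ (interferon gamma) the sources used here give neither dose nor timing. The labels do not say whether the libraries of a group came from separate animals or cultures, so the p-values measure the spread between these libraries, which may be technical.

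C/EBP proteins bind DNA as dimers through a basic region and a leucine zipper, and KLF proteins bind GC-rich and CACCC sequences through zinc fingers at their C terminus. In myeloid cells C/EBPα is required for the development of granulocytes and monocytes, and C/EBPβ and C/EBPδ act with NF-κB at inflammatory genes after Toll-like receptor signalling. KLF2 and KLF4 are known to restrain inflammatory activation of macrophages, whereas KLF6 is known to favour it. BRD9 is a subunit of a SWI/SNF chromatin remodelling complex, and the glucocorticoid receptor is the nuclear receptor that Dex activates.

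Libraries held 19253941 to 29912533 counts in experiment 1 and 14472828 to 17930566 counts in experiment 2, and intervals below cover the spread between libraries and counting. Summed over 8 macrophage markers the level was 11413 to 23759.9 counts per 1000000 (CPM, scaled by TMM factors) in experiment 1 and 12472 to 14605 CPM in experiment 2, so the defining markers of the labelled cell type were present. Fkbp5, a glucocorticoid receptor target, was at 519 to 546 CPM in the libraries of experiment 1 labelled with Dex and at 13.0 to 36.6 CPM in the others, so no library went against its Dex label. The Brd9 transcript was at 24.2 to 45.2 CPM in experiment 1, which does not check the compounds, as they act on the protein. In experiment 1 the first library of Dex + LPS and that of Dex + dBRD9 + LPS stood apart from the others of their groups by transcript length, with Spearman's rho between deviation and length of -0.68 and -0.516 across 7593 genes. The 3 dBRD9 + LPS libraries also spread by length, with rho of -0.331, 0.43 and -0.0743. In experiment 2 the 2 vehicle libraries differed in the same way (-0.636 and 0.636), as did the 2 Dex + IFNγ + LPS libraries (0.572 and -0.572). The 5 stromal markers summed to 32.6 to 66.4 CPM in experiment 2 and to at most 0.385 CPM in experiment 1. In bulk RNA, fewer cells of a type and less RNA per cell cannot be told apart.

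The promoters of the 4 genes with the largest Dex responses in experiment 2 and of Klf6, the member that Dex lowered in both experiments, are given so that their sequence can be read beside the values. They come from RefSeq on build GRCm38.p6, which held windows of 250 bases before to 50 bases after the annotated start for 8 of the 10 genes, all except Cebpd and Klf10. The windows lie at chr8:72318812-72319111 (plus strand, Klf2), chr4:55532426-55532725 (minus strand, Klf4), chr7:35119043-35119342 (plus strand, Cebpa), chr2:167688665-167688964 (plus strand, Cebpb) and chr13:5861239-5861538 (plus strand, Klf6). Each is written 5′ to 3′ on the strand of its gene, and capitals mark matches on either strand to one of the motifs named after the sequences.
Klf2: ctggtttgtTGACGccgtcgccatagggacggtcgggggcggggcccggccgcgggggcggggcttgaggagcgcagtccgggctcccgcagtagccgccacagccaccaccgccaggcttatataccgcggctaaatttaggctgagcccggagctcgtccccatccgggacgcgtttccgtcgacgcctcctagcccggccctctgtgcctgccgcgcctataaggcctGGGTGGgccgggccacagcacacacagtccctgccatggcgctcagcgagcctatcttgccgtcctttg
Klf4: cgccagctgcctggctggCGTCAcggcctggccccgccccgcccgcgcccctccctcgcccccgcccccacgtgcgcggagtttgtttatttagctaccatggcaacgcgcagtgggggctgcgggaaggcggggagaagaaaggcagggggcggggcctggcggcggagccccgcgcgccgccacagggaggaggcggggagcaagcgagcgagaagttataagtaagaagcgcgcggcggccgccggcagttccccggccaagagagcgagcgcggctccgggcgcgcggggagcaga
Cebpa: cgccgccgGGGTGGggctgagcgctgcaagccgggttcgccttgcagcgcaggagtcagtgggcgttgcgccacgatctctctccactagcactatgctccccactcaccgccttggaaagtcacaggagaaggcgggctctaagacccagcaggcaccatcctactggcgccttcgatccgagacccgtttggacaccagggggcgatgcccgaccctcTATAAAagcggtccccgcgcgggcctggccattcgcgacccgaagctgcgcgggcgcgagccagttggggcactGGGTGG
Cebpb: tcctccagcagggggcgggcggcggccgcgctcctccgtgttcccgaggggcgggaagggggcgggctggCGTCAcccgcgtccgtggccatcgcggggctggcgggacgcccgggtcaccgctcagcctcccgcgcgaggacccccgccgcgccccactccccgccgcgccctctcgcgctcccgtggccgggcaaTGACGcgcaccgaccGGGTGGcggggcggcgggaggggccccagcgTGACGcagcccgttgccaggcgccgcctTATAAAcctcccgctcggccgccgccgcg
Klf6: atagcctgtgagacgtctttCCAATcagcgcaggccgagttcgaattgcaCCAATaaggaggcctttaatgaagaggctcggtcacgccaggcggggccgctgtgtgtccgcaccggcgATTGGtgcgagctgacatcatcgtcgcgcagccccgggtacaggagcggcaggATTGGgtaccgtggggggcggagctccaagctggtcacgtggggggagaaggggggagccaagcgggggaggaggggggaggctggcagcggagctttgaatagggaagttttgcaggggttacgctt

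The motifs searched on both strands were AGAACA (a glucocorticoid receptor hexamer), TGACG (the short form of the CREB site), TTGCNNAA (C/EBP), CCACCC (the CACCC box of KLF proteins), CCAAT (the CCAAT box) and TATAAA (the TATA box), and no match overlapped a match to another motif in the windows shown. TGACG was found 3 times in the Cebpb window, at -180, -53 and -7 from the annotated start, and once each in those of Klf2, Klf3, Klf4 and Klf13. CCACCC was found 3 times in the Klf3 window, 2 times in that of Cebpa and once each in those of Cebpb, Klf2 and Klf13. The Klf6 window held 4 CCAAT boxes, at -230, -200, -131 and -78, and those of Cebpg and Klf13 held 2 each. TATAAA was found at -30 in the Cebpa window and at 22 in the Cebpb window. None of the 8 windows held AGAACA or TTGCNNAA, which says only that these letters are not in these windows. Among 32544 RefSeq windows of this length, TGACG was in 20.9%, CCACCC in 31.6%, CCAAT in 37.4%, TATAAA in 13.6%, AGAACA in 18.9% and TTGCNNAA in 10.8%. These matches are descriptions of sequence and not sites of measured binding.

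The levels of the 10 genes were compared per length, as CPM per kilobase of summed exon length, given as mean ± SD. Under LPS alone (n = 3) Klf6 had the highest level at 243 ± 7.31 CPM per kilobase, followed by Cebpb at 113 ± 8.79, Cebpd at 55.3 ± 0.735, Cebpa at 13.0 ± 0.428 and Klf13 at 10.3 ± 0.567. Klf2 followed at 7.69 ± 0.526, Klf3 at 6.15 ± 0.178, Cebpg at 5.82 ± 0.126, Klf10 at 2.69 ± 0.239 and Klf4 at 1.38 ± 0.163 CPM per kilobase. Each of these levels lay more than the sum of both SDs away from the next. In vehicle cells of experiment 1 Klf6 (68.0 ± 1.06 CPM per kilobase) and Cebpa (65.0 ± 4.44) led and did not differ beyond their spread, and Cebpb followed at 33.9 ± 2.52. Klf13 (11.1 ± 0.265), Cebpg (10.3 ± 0.588), Klf2 (10.3 ± 0.598), Klf10 (10.1 ± 0.398) and Klf4 (9.31 ± 0.0824) lay close together in vehicle cells, and Cebpd (3.01 ± 0.118) and Klf3 (1.96 ± 0.117) were the lowest.

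**Figure D1:**
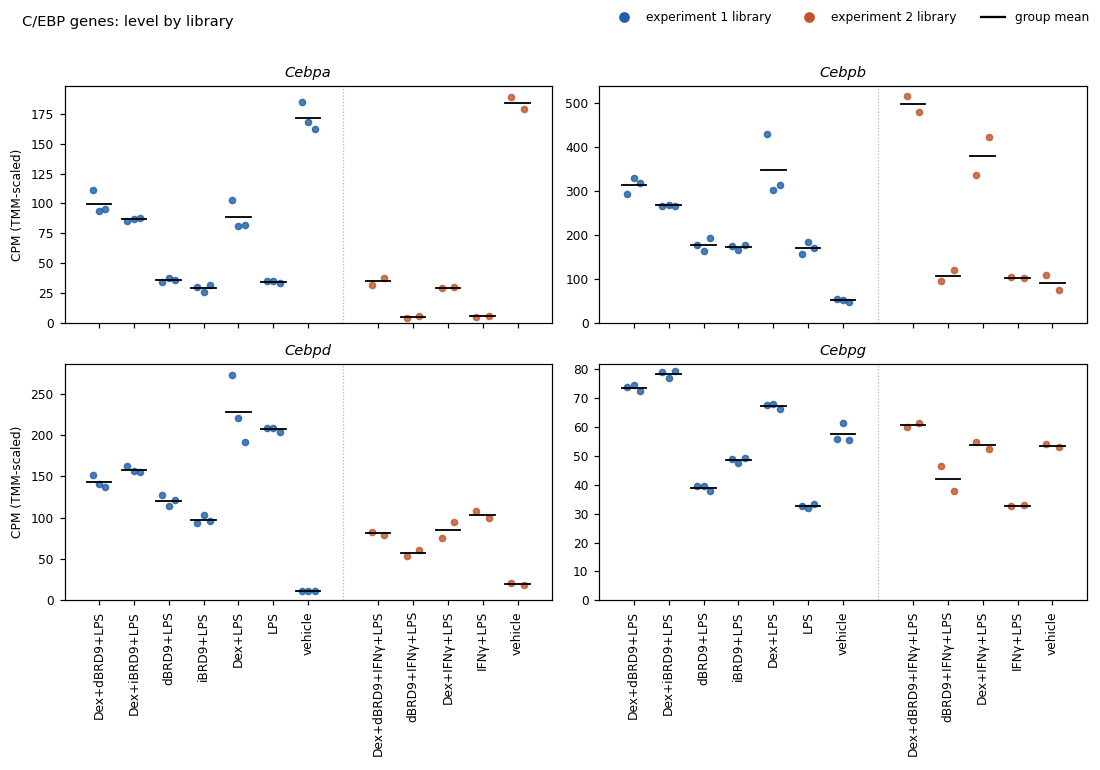
Level of the 4 C/EBP genes by library, in CPM scaled by TMM factors, with groups of experiment 1 (3 libraries each, blue) left of the dotted line and groups of experiment 2 (2 libraries each, orange) right of it. Points are libraries and black bars group means; each experiment was scaled separately. Cebpa was highest in vehicle cells of both experiments, and Cebpd was at 10.8 to 11.6 CPM in vehicle cells of experiment 1, below every LPS library.

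The comparison of LPS with vehicle asks how the 10 genes responded to the stimulus itself. LPS raised Cebpd, Klf6, Cebpb and Klf3 and lowered Klf4, Cebpa, Klf10, Cebpg and Klf2, and Klf13 did not pass the test. Thus 9 of 10 genes were called at an edgeR quasi-likelihood adjusted p under 0.05, 4 higher and 5 lower. The background was 75.3% of 12662 tested genes called (36.1% higher and 39.3% lower), so a share of 9 in 10 says little about these genes as a set. The median log2 fold change was -0.27 over the 10 genes and -0.05 over all tested genes.

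Cebpd, whose protein is known to sustain transcription after Toll-like receptor 4 signalling, was at 209, 208 and 204 CPM in LPS libraries, against 10.8, 11.5 and 11.6 CPM in vehicle libraries. All LPS libraries were above all vehicle libraries, and the fold was 18.3 (log2 fold change 4.20 ± 0.099 SE, adjusted p = 1.2e-20). Cebpb, which encodes an activator of acute-phase and inflammatory genes, was at 157, 184 and 170.1 CPM with LPS, against 54.0, 52.2 and 46.8 CPM with vehicle. The groups did not overlap, and the fold was 3.34 (log2 1.74 ± 0.10, adjusted p = 2.5e-13). Cebpa went the other way. It was at 35.2, 34.6 and 33.0 CPM with LPS, against 185, 168 and 162 CPM with vehicle, which is 5-fold lower (log2 -2.32 ± 0.09, adjusted p = 1.5e-16). Cebpg encodes a family member without a known activation domain that pairs with other leucine zipper proteins. It was at 32.1 to 33.5 CPM with LPS, against 55.7 to 61.5 CPM with vehicle (log2 -0.82 ± 0.049, adjusted p = 5.9e-13). Exons of Cebpb share 312 bases with Tmem189 and those of Cebpd share 562 bases with Spidr, both on the opposite strand. Exons of Klf3 share 404 bases with Gm20033 and those of Cebpa 51 with Gm45091, likewise on the opposite strand. Those of Cebpg share 73 bases with Gm44836 on the same strand and 4 with Gm45095 on the opposite strand. No source used here gives the strand setting of the counting, so reads in bases shared across strands cannot be assigned to one gene. Spidr was at 13.2 to 15.5 CPM with LPS, against 10.2 to 11.1 CPM with vehicle, and Tmem189 at 97.6 to 101 CPM with LPS, against 167 to 177 CPM with vehicle.

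Among the KLF genes, Klf6 was at 1102, 1060.3 and 1039 CPM with LPS, against 294, 303 and 299 CPM with vehicle. This was a 3.57-fold difference with no overlap (log2 1.84 ± 0.054, adjusted p = 8.1e-19). Klf3, whose protein represses transcription through the co-repressor CtBP, was at 70.8, 66.9 and 69.8 CPM with LPS, against 23.4, 22.0 and 20.7 CPM with vehicle (log2 1.65 ± 0.13, adjusted p = 5.8e-11). The fold was 3.14, and the groups were again apart. Klf4 was at 3.64, 4.52 and 4.47 CPM with LPS, against 28.2, 28.3 and 28.7 CPM with vehicle. It was 6.73-fold lower (log2 -2.75 ± 0.096, adjusted p = 2e-17), the largest decrease among the 10 genes. Klf10, first described as induced by transforming growth factor β, was at 11.6, 11.9 and 10.1 CPM with LPS, against 41.3, 44.3 and 41.5 CPM with vehicle (log2 -1.91 ± 0.11, adjusted p = 2.7e-13). Klf2 moved least of the genes called, with 13.1 to 15 CPM under LPS, against 17.9 to 20.1 CPM under vehicle (log2 -0.43 ± 0.10, adjusted p = 0.00062). Klf13, whose protein is known as a repressor and as a regulator of Ccl5 in lymphocytes, was at 81.9, 73.5 and 76.2 CPM with LPS, against 86.0, 82.3 and 82.7 CPM with vehicle (log2 -0.12, 95% interval -0.26 to 0.03, adjusted p = 0.14). With scaling by library totals alone Klf13 was called lower (log2 -0.63, adjusted p = 1.1e-08), and so it was at -0.23 to -0.11 under 3 other alternatives. With library totals the median of all tested genes was -0.562, and the split of called genes was 2421 higher and 8125 lower, against 4567 higher and 4971 lower with TMM.

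**Figure D2:**
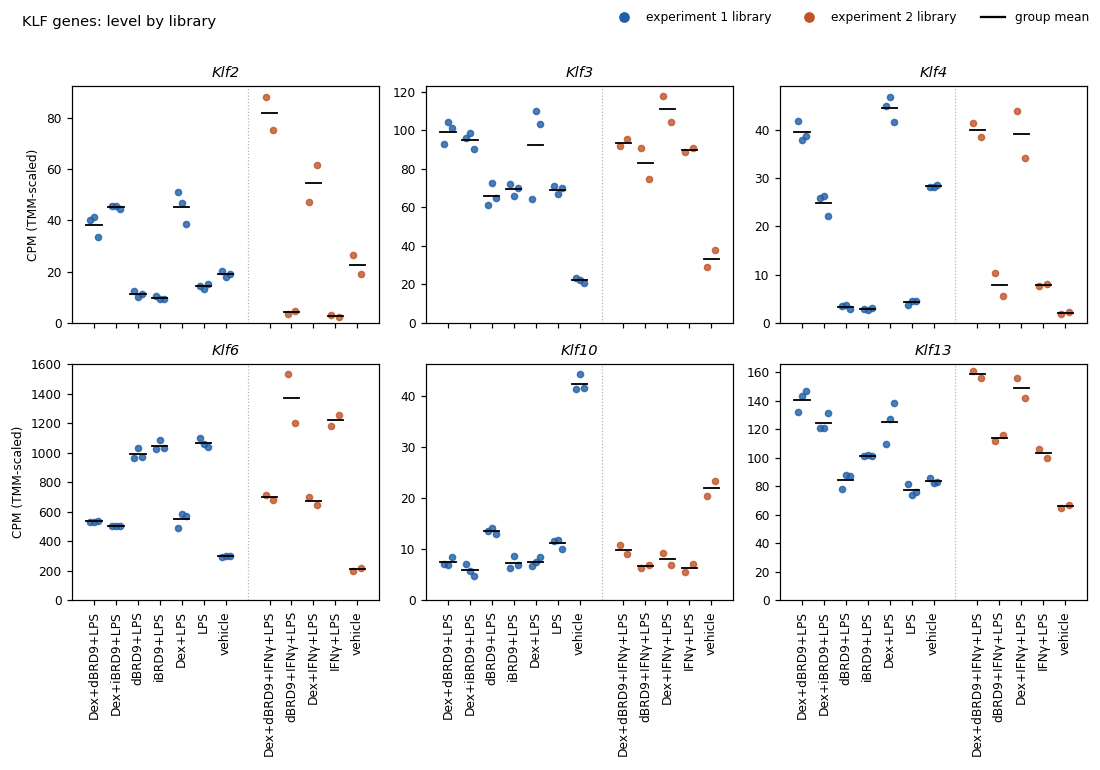
Level of the 6 KLF genes by library, in CPM scaled by TMM factors, arranged as for the C/EBP genes (blue, experiment 1; orange, experiment 2; black bars, group means). Klf2 and Klf4 were higher in every group with Dex than in its counterpart without Dex, Klf6 was lower, and the first Dex + LPS library had 64.5 CPM of Klf3, against 109.8 and 103 CPM in the other two.

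**Figure D3:**
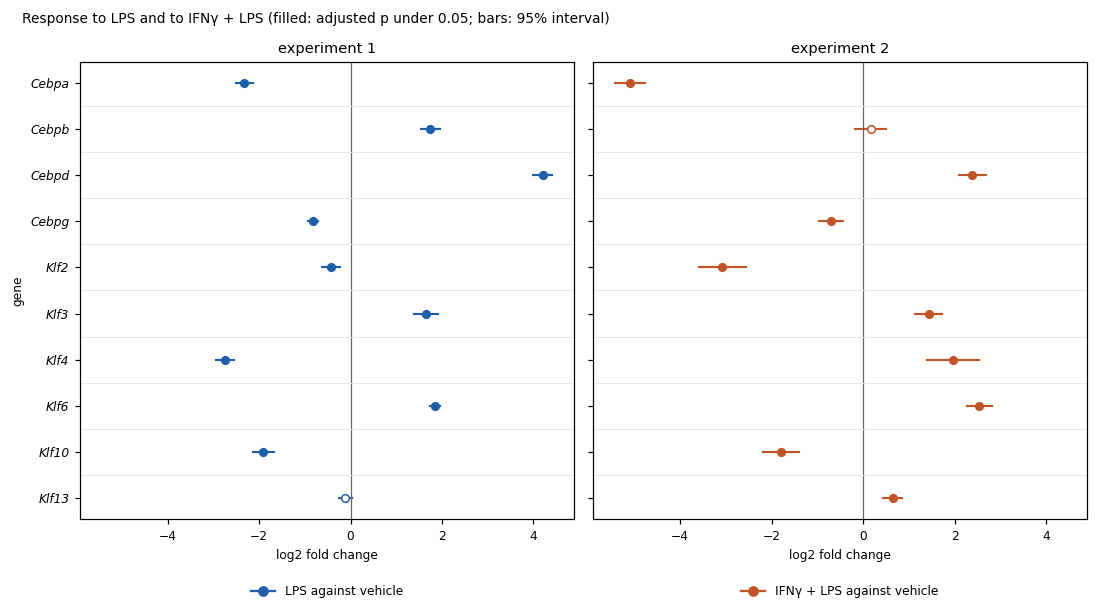
Log2 fold change of each gene for LPS against vehicle (left panel, experiment 1) and IFNγ + LPS against vehicle (right panel, experiment 2), on a shared axis. Points are estimates, bars 95% intervals, and open points did not reach an adjusted p under 0.05. Klf4 lay at -2.75 in experiment 1 and at 1.96 in experiment 2, with vehicle means of 28.4 and 2 CPM.

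IFNγ + LPS was compared with vehicle in experiment 2. It raised Klf6, Cebpd, Klf4, Klf3 and Klf13 and lowered Cebpa, Klf2, Klf10 and Cebpg, and Cebpb did not pass the test. That made 9 of 10 genes called, 5 higher and 4 lower, beside 68.5% of 13313 tested genes called (32.8% higher and 35.6% lower). Cebpa fell furthest, to 5.16 and 5.61 CPM with IFNγ + LPS, against 189 and 179 CPM with vehicle, which is 34.2-fold lower (log2 -5.10 ± 0.15, adjusted p = 6e-14). Klf2 was at 3.10 and 2.14 CPM with IFNγ + LPS, against 26.3 and 18.9 CPM with vehicle (log2 -3.08 ± 0.24, adjusted p = 1e-08). Both genes lay far outside the spread between libraries. Klf6 was at 1183 and 1253 CPM with IFNγ + LPS, against 199 and 219 CPM with vehicle (log2 2.54 ± 0.13, adjusted p = 3.7e-11), and Cebpd at 108 and 99.2 CPM with IFNγ + LPS, against 21.1 and 18.6 CPM with vehicle (log2 2.39 ± 0.14, adjusted p = 1.8e-10). The 5 stromal markers summed to 59.8 to 66.4 CPM with IFNγ + LPS and 49.9 to 50.7 CPM with vehicle, and their part in these results was not tested.

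Klf4 was at 7.65 and 8.05 CPM with IFNγ + LPS, against 1.76 and 2.23 CPM with vehicle, so that it was higher with the stimulus in experiment 2 (log2 1.96 ± 0.27, adjusted p = 8e-06) and lower in experiment 1. Its level in experiment 1 was 28.2 to 28.7 CPM with vehicle and 3.64 to 4.52 CPM with LPS. The experiments were scaled separately and differ in the vehicle level of Klf4 as well as in stimulus. The difference between them was not tested. Klf3 had a log2 fold change of 1.43 ± 0.14 (adjusted p = 1.4e-07), Klf10 of -1.80 ± 0.19 (adjusted p = 4e-07) and Cebpg of -0.71 ± 0.12 (adjusted p = 7.8e-05). Klf13 was at 106 and 100 CPM with IFNγ + LPS, against 64.8 and 67.0 CPM with vehicle (log2 0.65 ± 0.10, adjusted p = 3.8e-05), and this call ended with library totals alone (log2 0, adjusted p = 0.98). Cebpb was at 103 and 102 CPM with IFNγ + LPS, against 109 and 73.4 CPM with vehicle, and the vehicle libraries spanned the stimulated ones (log2 0.17, 95% interval -0.18 to 0.51, adjusted p = 0.38). Without the first vehicle library Cebpb was called higher (log2 0.48, adjusted p = 0.0068), and with library totals alone it was called lower (log2 -0.48, adjusted p = 0.01).

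Dex + LPS was set against LPS to see how the glucocorticoid altered the 10 genes in stimulated cells. Dex raised Klf4, Klf2, Cebpa, Cebpg, Cebpb, Klf13 and Klf3 and lowered Klf6 and Klf10, and Cebpd did not pass the test. Thus 9 of 10 genes were called, 7 higher and 2 lower, beside a background of 55.4% called (27.9% higher and 27.5% lower). The median log2 fold change was 0.86 over the 10 genes and 0.01 over all tested genes. Of the 5 genes that LPS had lowered against vehicle, Klf4, Cebpa, Cebpg and Klf2 were higher with Dex, and Klf10 was lower still. The LPS libraries are shared by both comparisons, so these directions are not independent of each other.

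Klf4 was at 45.1, 46.9 and 41.7 CPM with Dex + LPS, against 3.64, 4.52 and 4.47 CPM with LPS. All Dex libraries were above all LPS libraries and also above the vehicle range of 28.2 to 28.7 CPM, and the fold over LPS was 10.6 (log2 3.40 ± 0.095, adjusted p = 2.5e-18). Klf2 was at 51.0, 46.8 and 38.5 CPM with Dex + LPS, against 14.5, 13.1 and 15 CPM with LPS (log2 1.68 ± 0.098, adjusted p = 1.2e-12). Its Dex libraries likewise lay above the vehicle libraries, which had 17.9 to 20.1 CPM. Klf6 was at 490.5, 587 and 572 CPM with Dex + LPS, against 1102, 1060.3 and 1039 CPM with LPS, a level 1.94-fold lower (log2 -0.96 ± 0.053, adjusted p = 4.4e-13). It remained above the 294 to 303 CPM of vehicle cells. Klf10 was at 6.63, 7.59 and 8.55 CPM with Dex + LPS, against 11.6, 11.9 and 10.1 CPM with LPS (log2 -0.57 ± 0.13, adjusted p = 6e-04). Klf13 was at 109.9, 127 and 138 CPM with Dex + LPS, against 81.9, 73.5 and 76.2 CPM with LPS (log2 0.70 ± 0.07, adjusted p = 1.4e-08). Klf3 varied with the libraries fitted. It was at 64.5, 109.8 and 103 CPM with Dex + LPS, against 70.8, 66.9 and 69.8 CPM with LPS, so the first Dex + LPS library was below all LPS libraries and the other two above them. The log2 fold change was 0.42 ± 0.12 (adjusted p = 0.005), 0.63 (adjusted p = 3.4e-10) without the first Dex + LPS library and 0.28 (adjusted p = 0.051) without the second, and the range over all alternatives was 0.28 to 0.63. It was not called when only these groups were fitted (adjusted p = 0.08).

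Among the C/EBP genes, Cebpa was at 103, 81.2 and 82.2 CPM with Dex + LPS, against 35.2, 34.6 and 33.0 CPM with LPS (log2 1.37 ± 0.09, adjusted p = 8.5e-12). It stayed below the 162 to 185 CPM of vehicle cells. Cebpb was at 429, 303 and 313 CPM with Dex + LPS, against 157, 184 and 170.1 CPM with LPS (log2 1.03 ± 0.096, adjusted p = 3.9e-09), with its highest value in the library that stood apart by transcript length. Cebpg was at 66.4 to 67.9 CPM with Dex + LPS, against 32.1 to 33.5 CPM with LPS (log2 1.04 ± 0.049, adjusted p = 3.2e-14), a 2.06-fold difference with the narrowest spread of the 4. Cebpd was at 273, 220 and 191 CPM with Dex + LPS, against 209, 208 and 204 CPM with LPS, and the Dex libraries lay on both sides of the LPS range (log2 0.14, 95% interval -0.03 to 0.31, adjusted p = 0.15). Cebpd was called higher without the third Dex + LPS library (log2 0.26, adjusted p = 0.0044) and with library totals alone (log2 0.23, adjusted p = 0.027). Without the first Dex + LPS library, which stood apart by transcript length, its value was -0.01 (adjusted p = 0.93), and without both libraries that stood apart -0.01 (adjusted p = 0.91).

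The summed level of 8 neutrophil markers moved with these groups. It was 69.9 to 76.3 CPM with Dex + LPS and 15 to 19.5 CPM with LPS. Mmp8 made up most of it, at a mean of 68.7 CPM with Dex + LPS and 9.17 CPM with LPS, while Ly6g averaged at most 0.0305 CPM, Elane at most 0.0483 CPM and Mpo was at 0 in both groups. Of the 4 markers tested, 1 was called higher and 2 lower, with a median log2 fold change of -0.63, beside 55.4% of all tested genes called. The part of these markers in the Dex results was not tested.

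In experiment 2, Dex + IFNγ + LPS was set against IFNγ + LPS. Dex raised Klf2, Cebpa, Klf4, Cebpb, Cebpg and Klf13 and lowered Klf6, which made 7 of 10 genes called, 6 higher and 1 lower, beside 19.9% of all tested genes (10.7% higher and 9.21% lower). Cebpd, Klf3 and Klf10 did not pass the test. The median log2 fold change was 0.62 over the 10 genes and 0.03 over all tested genes. Klf2 was at 47.3 and 61.7 CPM with Dex + IFNγ + LPS, against 3.10 and 2.14 CPM with IFNγ + LPS, a 20.5-fold difference (log2 4.35 ± 0.23, adjusted p = 2.6e-09). Klf4 was at 44.0 and 34.3 CPM with Dex, against 7.65 and 8.05 CPM with IFNγ + LPS alone (log2 2.32 ± 0.21, adjusted p = 8.2e-07). In both genes the Dex libraries also exceeded the vehicle libraries of the same experiment.

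Cebpa was at 28.7 and 29.6 CPM with Dex + IFNγ + LPS, against 5.16 and 5.61 CPM with IFNγ + LPS (log2 2.44 ± 0.15, adjusted p = 1.2e-08). Cebpb was at 336 and 423 CPM with Dex + IFNγ + LPS, against 103 and 102 CPM with IFNγ + LPS (log2 1.89 ± 0.17, adjusted p = 5.3e-07). For both genes the groups were separate, and Cebpa with Dex stayed well below its 189 and 179 CPM in vehicle cells. Klf6 was at 702 and 644 CPM with Dex + IFNγ + LPS, against 1183 and 1253 CPM with IFNγ + LPS (log2 -0.86 ± 0.12, adjusted p = 8.5e-05). Cebpg (log2 0.71 ± 0.12, adjusted p = 0.00046) and Klf13 (log2 0.53 ± 0.10, adjusted p = 0.0013) were higher by smaller amounts. The genes that did not pass were Cebpd (log2 -0.28, adjusted p = 0.14), Klf3 (log2 0.30, adjusted p = 0.12) and Klf10 (log2 0.36, adjusted p = 0.24). The 5 stromal markers summed to 38.1 to 45.7 CPM with Dex + IFNγ + LPS and 59.8 to 66.4 CPM with IFNγ + LPS. The 8 neutrophil markers summed to 8.99 to 11.5 CPM with Dex + IFNγ + LPS and 20.3 to 20.7 CPM with IFNγ + LPS, with Ly6g at 0 throughout the experiment. Their part in these results was not tested.

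**Figure D4:**
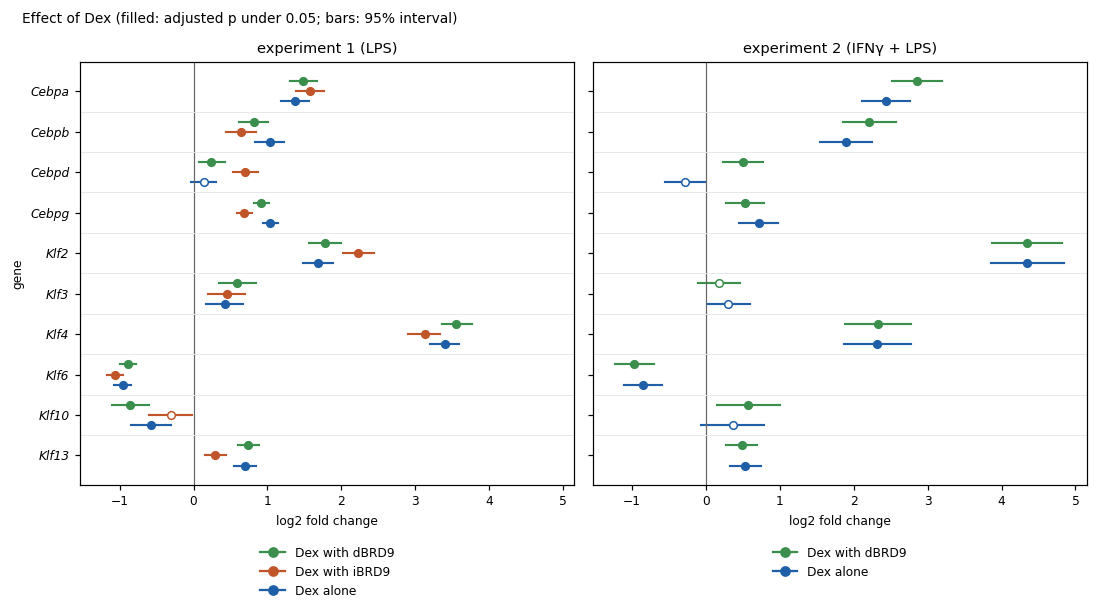
Log2 fold change of each gene with Dex, for cells with dBRD9, cells with iBRD9 and cells with no BRD9 compound, under LPS (left panel, experiment 1) and IFNγ + LPS (right panel, experiment 2, no iBRD9 group). Points are estimates, bars 95% intervals, and open points did not reach an adjusted p under 0.05. Klf4, Klf2 and Cebpa were the genes with the largest increases in every pair of groups, and Klf6 lay between -1.06 and -0.86.

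The BRD9 compounds were first compared with LPS in the absence of Dex. iBRD9 lowered Cebpd, Klf10, Klf4, Klf2 and Cebpa and raised Cebpg and Klf13, which made 7 of 10 genes called, 2 higher and 5 lower, beside 61.9% of all tested genes (31.4% higher and 30.5% lower). The share of the 10 genes was close to this background. Cebpb, Klf3 and Klf6 did not pass the test, with log2 fold changes of 0.01 (95% interval -0.19 to 0.21), 0 (-0.24 to 0.25) and -0.03 (-0.13 to 0.08). dBRD9 lowered Cebpd and Klf2 and raised Cebpg, which made 3 of 10 genes called, 1 higher and 2 lower, beside 16.6% of all tested genes (6.64% higher and 9.97% lower). Because the dose of iBRD9 in each library is unknown here, values of the compounds are set side by side without a test between them, and both comparisons share the LPS libraries.

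Cebpd was at 93.9, 103 and 95.7 CPM with iBRD9 + LPS and at 127, 114 and 121 CPM with dBRD9 + LPS, against 209, 208 and 204 CPM with LPS. Every library with either compound was below every LPS library. The log2 fold change was -1.09 ± 0.084 for iBRD9 (adjusted p = 1.3e-10) and -0.78 ± 0.083 for dBRD9 (adjusted p = 3.6e-07). With either compound Cebpd remained above the 10.8 to 11.6 CPM of vehicle cells. Cebpg was at 47.6 to 49.3 CPM with iBRD9 + LPS and at 38.0 to 39.5 CPM with dBRD9 + LPS, against 32.1 to 33.5 CPM with LPS. All of these ranges were apart, with log2 fold changes of 0.57 ± 0.049 for iBRD9 (adjusted p = 9.6e-10) and 0.25 ± 0.05 for dBRD9 (adjusted p = 8e-04). Klf2 was at 10.3, 9.28 and 9.19 CPM with iBRD9 + LPS and at 12.3, 10.2 and 11.2 CPM with dBRD9 + LPS, against 14.5, 13.1 and 15 CPM with LPS. Its log2 fold change was -0.56 ± 0.11 for iBRD9 (adjusted p = 0.00012) and -0.34 ± 0.11 for dBRD9 (adjusted p = 0.036). The dBRD9 call for Klf2 ended when the first or the third LPS or the second or the third dBRD9 + LPS library was left out (adjusted p of 0.094 to 0.17), with library totals alone (adjusted p = 0.083) and with limma voom (adjusted p = 0.077).

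Klf4, already low under LPS, was at 2.92, 2.57 and 3.04 CPM with iBRD9 + LPS and at 3.45, 3.65 and 2.90 CPM with dBRD9 + LPS, against 3.64, 4.52 and 4.47 CPM with LPS. It was called lower with iBRD9 (log2 -0.57 ± 0.13, adjusted p = 0.00051) and not with dBRD9 (log2 -0.34, 95% interval -0.60 to -0.07, adjusted p = 0.079). Klf10 was at 6.34, 8.58 and 6.88 CPM with iBRD9 + LPS and at 13.5, 14.1 and 13.0 CPM with dBRD9 + LPS, against 11.6, 11.9 and 10.1 CPM with LPS. The iBRD9 libraries were below the LPS range and called lower (log2 -0.64 ± 0.13, adjusted p = 0.00013), and the dBRD9 libraries were above it without passing the test (log2 0.26, 95% interval 0.02 to 0.51, adjusted p = 0.15). Klf13 was at 101 to 102 CPM with iBRD9 + LPS, against 73.5 to 81.9 CPM with LPS (log2 0.39 ± 0.07, adjusted p = 4e-05), and had a log2 fold change of 0.12 with dBRD9 (adjusted p = 0.27). Cebpa was at 25.8 to 31.2 CPM with iBRD9 + LPS, against 33.0 to 35.2 CPM with LPS (log2 -0.24 ± 0.092, adjusted p = 0.027), a call that ended without the second iBRD9 + LPS library (log2 -0.16, adjusted p = 0.16), without the first (adjusted p = 0.071) or the second LPS library (adjusted p = 0.059) and with library totals alone (log2 -0.11, adjusted p = 0.34). The 8 neutrophil markers summed to 0.641 to 0.994 CPM with iBRD9 + LPS and 9.20 to 11.1 CPM with dBRD9 + LPS, against 15 to 19.5 CPM with LPS, and their part in these results was not tested.

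In experiment 2, dBRD9 + IFNγ + LPS was set against IFNγ + LPS. Only Cebpd was called among the 10 genes, and it was lower, beside 1.83% of all tested genes (0.819% higher and 1.01% lower). Cebpd was at 53.6 and 60.9 CPM with dBRD9 + IFNγ + LPS, against 108 and 99.2 CPM with IFNγ + LPS (log2 -0.86 ± 0.13, adjusted p = 0.0017). Its value without the first dBRD9 + IFNγ + LPS library was -0.77 (adjusted p = 0.058), which ended the call. Cebpg was at 46.5 and 37.8 CPM with dBRD9, against 32.6 and 33.0 CPM without it (log2 0.36, 95% interval 0.10 to 0.62, adjusted p = 0.20). Klf2 was at 3.37 and 4.69 CPM with dBRD9, against 3.10 and 2.14 CPM without it (log2 0.60, 95% interval -0.03 to 1.23, adjusted p = 0.46), so its estimate lay on the other side of 0 from that in experiment 1. The 5 stromal markers summed to 48.5 to 49.6 CPM with dBRD9 + IFNγ + LPS, against 59.8 to 66.4 CPM with IFNγ + LPS. The 8 neutrophil markers summed to 12.1 to 12.8 CPM with dBRD9 + IFNγ + LPS, against 20.3 to 20.7 CPM with IFNγ + LPS. Of these markers, 0 of 4 tested stromal and 0 of 6 tested neutrophil genes were called. Their part in these results was not tested.

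**Figure D5:**
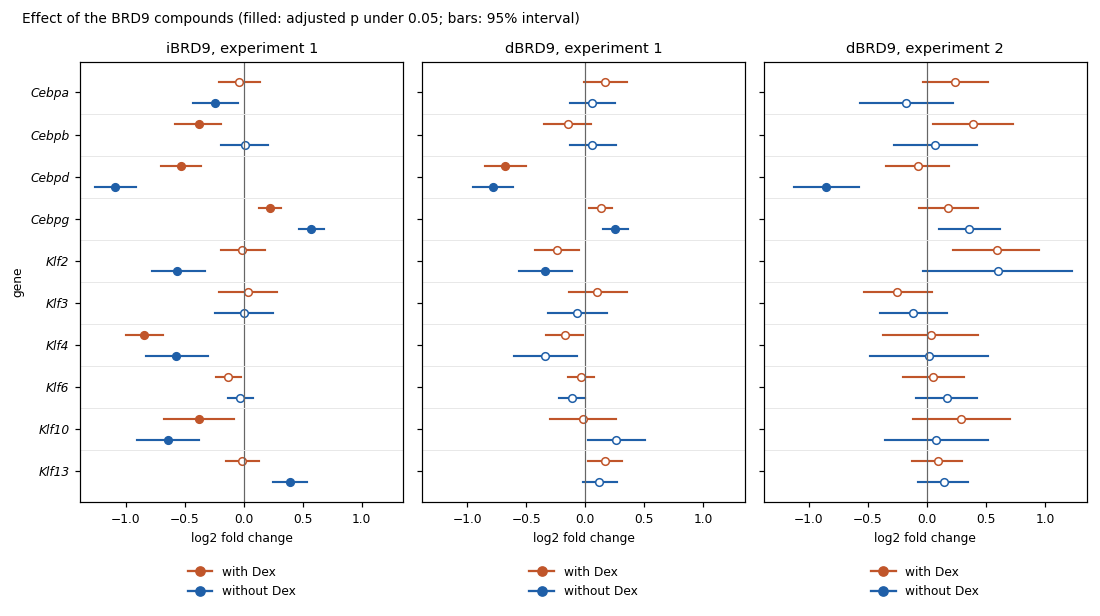
Log2 fold change of each gene with a BRD9 compound, in cells with Dex and in cells without Dex, for iBRD9 and dBRD9 under LPS (experiment 1) and dBRD9 under IFNγ + LPS (experiment 2), on a shared axis. Points are estimates, bars 95% intervals, and open points did not reach an adjusted p under 0.05. Cebpd lay at -1.09, -0.78 and -0.86 without Dex.

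The compounds were next compared in cells that also had Dex. Dex + iBRD9 + LPS against Dex + LPS called 5 of 10 genes, 1 higher and 4 lower, beside 34.7% of all tested genes (16.7% higher and 18% lower). Klf4 was at 26.0, 26.4 and 22.2 CPM with Dex + iBRD9 + LPS, against 45.1, 46.9 and 41.7 CPM with Dex + LPS, a level 1.79-fold lower with no overlap (log2 -0.84 ± 0.077, adjusted p = 1.8e-08). Cebpd was at 163, 156 and 155 CPM with Dex + iBRD9 + LPS, against 273, 220 and 191 CPM with Dex + LPS (log2 -0.53 ± 0.083, adjusted p = 2.8e-05). The highest Dex + LPS value of Cebpd, 273 CPM, came from the library that stood apart by transcript length. Cebpb was at 266, 269 and 266 CPM with Dex + iBRD9 + LPS, against 429, 303 and 313 CPM with Dex + LPS (log2 -0.38 ± 0.095, adjusted p = 0.003), and was not called when only these groups were fitted (adjusted p = 0.06). Without the first Dex + LPS library, its highest and the one that stood apart, the value for Cebpb was -0.21 (adjusted p = 0.0082). Tmem189, which shares exon bases with Cebpb on the opposite strand, also fell in this comparison, to 64.1 to 68.2 CPM with Dex + iBRD9 + LPS, against 83.9 to 103 CPM with Dex + LPS (log2 -0.47 ± 0.069, adjusted p = 1.2e-05). The part of shared reads in the result for Cebpb was not tested. Cebpg was higher (log2 0.22 ± 0.047, adjusted p = 0.00079), likewise not called in the fit of these groups only (adjusted p = 0.051). Klf10 was lower (log2 -0.38 ± 0.14, adjusted p = 0.042) with overlapping groups, and its call ended in 7 of the alternatives (adjusted p of 0.052 to 0.25). These included leaving out the second or the third library of either group, and without the third Dex + iBRD9 + LPS library its value was -0.24. Klf3 had a log2 fold change of 0.04 (adjusted p = 0.84), and without the first Dex + LPS library it was called lower (-0.17, adjusted p = 0.031). The 8 neutrophil markers summed to 23.2 to 25.8 CPM with Dex + iBRD9 + LPS, against 69.9 to 76.3 CPM with Dex + LPS, and 3 of the 4 tested were called lower. Their part in these results was not tested.

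Dex + dBRD9 + LPS against Dex + LPS called 1 of 10 genes, Cebpd, which was lower, beside 15.8% of all tested genes (6.51% higher and 9.28% lower). That background was smaller when only these groups were fitted, with 142 higher and 437 lower of 11634 tested genes, against 824 and 1175 of 12662. Cebpd was at 152, 140.3 and 137 CPM with Dex + dBRD9 + LPS, against 273, 220 and 191 CPM with Dex + LPS, with no overlap (log2 -0.68 ± 0.083, adjusted p = 3.4e-06). Klf4 was at 42.0, 37.9 and 38.8 CPM with Dex + dBRD9 + LPS, against 45.1, 46.9 and 41.7 CPM with Dex + LPS (log2 -0.17, 95% interval -0.33 to -0.02, adjusted p = 0.12). Cebpa was at 111, 93.3 and 94.9 CPM with Dex + dBRD9 + LPS, against 103, 81.2 and 82.2 CPM with Dex + LPS (log2 0.17, adjusted p = 0.20), and was called higher without the first Dex + LPS library (log2 0.29, adjusted p = 0.0024). The 8 neutrophil markers summed to 36.1 to 42 CPM with Dex + dBRD9 + LPS, against 69.9 to 76.3 CPM with Dex + LPS, with 2 of the 4 tested called lower, and their part in the result for Cebpd was not tested. In experiment 2, Dex + dBRD9 + IFNγ + LPS against Dex + IFNγ + LPS called 0 of 10 genes by edgeR, beside 1.4% of all tested genes (0.233% higher and 1.16% lower). In that comparison 2 genes had an unadjusted p under 0.05, and DESeq2 and limma voom also called 0. Cebpd was at 83.0 and 78.9 CPM with Dex + dBRD9 + IFNγ + LPS, against 76.0 and 94.7 CPM with Dex + IFNγ + LPS (log2 -0.08, 95% interval -0.35 to 0.19, adjusted p = 0.83). Klf2 was at 88.2 and 75.5 CPM with Dex + dBRD9 + IFNγ + LPS, against 47.3 and 61.7 CPM with Dex + IFNγ + LPS (log2 0.59, unadjusted p = 0.0038, adjusted p = 0.12), and Cebpb at 515 and 479 CPM with Dex + dBRD9 + IFNγ + LPS, against 336 and 423 CPM with Dex + IFNγ + LPS (log2 0.39, unadjusted p = 0.026, adjusted p = 0.27).

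The Dex effect was also measured in cells that had a BRD9 compound. Dex + iBRD9 + LPS against iBRD9 + LPS called 9 of 10 genes, 8 higher and 1 lower, beside 49.8% of all tested genes (25.7% higher and 24.1% lower). Dex + dBRD9 + LPS against dBRD9 + LPS called all 10, 8 higher and 2 lower, beside 55.8% (29.1% higher and 26.7% lower). Dex + dBRD9 + IFNγ + LPS against dBRD9 + IFNγ + LPS called 9, 8 higher and 1 lower, beside 28.4% (14% higher and 14.4% lower). Klf4 had log2 fold changes of 3.13 ± 0.10, 3.56 ± 0.099 and 2.33 ± 0.21 in these comparisons, Klf2 of 2.23 ± 0.10, 1.78 ± 0.10 and 4.34 ± 0.22, and Cebpa of 1.58 ± 0.09, 1.48 ± 0.089 and 2.86 ± 0.16. Klf6 was the member called lower in each, with log2 fold changes of -1.06 ± 0.053, -0.89 ± 0.053 and -0.97 ± 0.12. Cebpd, which Dex alone left uncalled in both experiments, was called higher with Dex in all of them, at 0.70 ± 0.084 (adjusted p = 2.8e-07), 0.24 ± 0.083 (adjusted p = 0.016) and 0.50 ± 0.13 (adjusted p = 0.0088). The call of Cebpd in the second ended when the second or the third dBRD9 + LPS or the first Dex + dBRD9 + LPS library was left out (adjusted p of 0.055 to 0.077), and in that under IFNγ + LPS when the first dBRD9 + IFNγ + LPS or the first Dex + dBRD9 + IFNγ + LPS library was left out (adjusted p of 0.081 and 0.072). Klf10 was lower with Dex in dBRD9-treated cells under LPS (log2 -0.86 ± 0.12, adjusted p = 3.8e-06) and higher in those under IFNγ + LPS (log2 0.57 ± 0.20, adjusted p = 0.043). The increase of Klf10 under IFNγ + LPS was not called by DESeq2 (adjusted p = 0.13), by limma voom (adjusted p = 0.062) or when any of its 4 libraries was left out (adjusted p of 0.065 to 0.25). The 8 neutrophil markers summed to 23.2 to 25.8 CPM with Dex + iBRD9 + LPS, against 0.641 to 0.994 CPM with iBRD9 + LPS, and to 36.1 to 42 CPM with Dex + dBRD9 + LPS, against 9.20 to 11.1 CPM with dBRD9 + LPS. Of the 4 tested, 2 were called higher and 0 lower with Dex in iBRD9-treated cells. In dBRD9-treated cells 1 was called higher and 1 lower, with a median log2 fold change of -0.61. Under IFNγ + LPS the 5 stromal markers summed to 32.6 to 38 CPM with Dex and dBRD9, against 48.5 to 49.6 CPM with dBRD9 and no Dex, and the neutrophil markers to 11.4 to 12.8 CPM, against 12.1 to 12.8 CPM. The part of these markers in the Dex effects was not tested.

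Whether a compound altered the Dex effect was tested as an interaction, which is the log2 fold change with Dex in cells with the compound minus that in cells without it. For iBRD9 5 of 10 genes were called, 2 higher and 3 lower, beside 33.2% of all tested genes (17.3% higher and 16% lower). Cebpd had an interaction of 0.56 ± 0.12 (adjusted p = 7e-04), with a Dex effect of 0.70 in iBRD9-treated cells and 0.14 in cells with LPS alone. Klf2 had one of 0.55 ± 0.14 (adjusted p = 0.004), with a Dex effect of 2.23 in iBRD9-treated cells and 1.68 in cells with LPS alone. Both genes thus had lower levels with iBRD9 than with LPS alone, and a larger relative increase with Dex. Klf13 (-0.40 ± 0.098, adjusted p = 0.0027), Cebpg (-0.35 ± 0.069, adjusted p = 0.00037) and Cebpb (-0.39 ± 0.13, adjusted p = 0.028) had smaller Dex effects in iBRD9-treated cells. For Klf13 they were 0.29 with iBRD9 and 0.70 without it, for Cebpg 0.69 with iBRD9 and 1.04 without it, and for Cebpb 0.64 with iBRD9 and 1.03 without it. The call for Cebpb ended when the first or the third library of LPS or of iBRD9 + LPS was left out (adjusted p of 0.052 to 0.087) and in the fit of these 4 groups only (adjusted p = 0.051). Without the first Dex + LPS library the interaction of Cebpb was -0.22 (adjusted p = 0.038), and without both libraries that stood apart it was -0.22 (adjusted p = 0.016). Tmem189 had an interaction of -0.38 ± 0.096 (adjusted p = 0.0039), and the part of shared reads was not tested. For Klf4, whose Dex effect was the largest, the interaction was -0.28 (95% interval -0.59 to 0.04, adjusted p = 0.17). Cebpa and Klf6 were called when the first Dex + LPS library was left out, at 0.32 (adjusted p = 0.011) and -0.18 (adjusted p = 0.0084), and not with it in the fit (adjusted p = 0.23 and 0.33).

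For dBRD9 under LPS the interaction called 0 of 10 genes by edgeR, beside 3.39% of all tested genes (1.82% higher and 1.57% lower), with 0 at an unadjusted p under 0.05 and 0 by DESeq2 and limma voom. The widest of the 10 intervals was that of Klf10, from -0.66 to 0.09. Cebpd, at 0.10 (adjusted p = 0.74), was called without the first Dex + LPS library (0.25, adjusted p = 0.036). Under IFNγ + LPS it called 0 of 10 genes by edgeR, beside 0.00751% of all tested genes, with 1 gene at an unadjusted p under 0.05. That gene was Cebpd, at 0.78 ± 0.18 (unadjusted p = 0.00055, adjusted p = 0.25), with a Dex effect of 0.50 in dBRD9-treated cells and -0.28 without dBRD9. Cebpd was called there by DESeq2 (0.76, adjusted p = 0.04) and with every gene with a count tested (0.79, adjusted p = 0.015), and not by limma voom, which called 0 of 10 genes.

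Other genes of both families and of the surrounding pathway gave a wider view. Of the other KLF genes 6 of 11 were tested in each experiment. Dex + LPS against LPS called 3 of the 6, 1 higher and 2 lower, with a median log2 fold change of -0.53, beside 55.4% of all tested genes called. Klf9, a known target of the glucocorticoid receptor, averaged 111 CPM with Dex + LPS and 24.6 CPM with LPS (log2 2.17) and 50 CPM with Dex + IFNγ + LPS and 6.76 CPM with IFNγ + LPS (log2 2.89). Klf8 averaged 4.41 CPM with Dex + LPS and 28.8 CPM with LPS (log2 -2.72). iBRD9 + LPS against LPS called all 6, 2 higher and 4 lower, with a median of -1.47, beside 61.9% of all tested genes called. Klf7 averaged 13.7 CPM with iBRD9 + LPS and 113 CPM with LPS (log2 -3.04) and Klf9 6.30 CPM with iBRD9 + LPS and 24.6 CPM with LPS (log2 -1.96). LPS against vehicle called 4 of the 6, 3 higher and 1 lower, beside 75.3% of all tested genes called. Klf7 was among those called, at 113 CPM with LPS and 9.82 CPM with vehicle (log2 3.52).

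Of the other C/EBP genes, Cebpz and Ddit3 were tested and Cebpe, a granulocyte gene that averaged at most 0.334 CPM in any group of experiment 1, was not. Ddit3, whose protein pairs with C/EBP proteins under stress, averaged 11.4 CPM with LPS and 20.5 CPM with vehicle (log2 -0.84), 16.4 CPM with Dex + LPS and 11.4 CPM with LPS (log2 0.52), and 19.2 CPM with iBRD9 + LPS and 11.4 CPM with LPS (log2 0.74). Of the tribbles genes and Cop1, whose products promote degradation of C/EBP proteins, 3 of 4 were tested. LPS against vehicle called all 3, 2 higher and 1 lower, beside 75.3% of all tested genes called. Trib1 averaged 73.0 CPM with LPS and 13.8 CPM with vehicle (log2 2.41), 22.0 CPM with iBRD9 + LPS and 73.0 CPM with LPS (log2 -1.73), and 46.8 CPM with dBRD9 + LPS and 73.0 CPM with LPS (log2 -0.64). Of the related Sp family 4 of 9 were tested, and Dex + LPS against LPS called 3, all higher, led by Sp4 at 0.58 and Sp3 at 0.38. The share over all tested genes was 55.4%. Dex + IFNγ + LPS against IFNγ + LPS called 0 of 4 tested, with a median log2 fold change of -0.14, beside 19.9% of all tested genes.

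Among 11 genes known as C/EBP targets, 10 were tested in each experiment. Dex + LPS against LPS called all 10, 5 higher and 5 lower, with a median log2 fold change of -0.13. The share over all tested genes was 55.4% (27.9% higher and 27.5% lower). Those with the largest changes were Hp, which encodes haptoglobin, at 5.75, Saa3, an acute-phase gene, at 4.28, Ptgs2, which encodes cyclooxygenase 2, at -4.12, and Nos2, which encodes inducible nitric oxide synthase, at -3.55. Saa3 averaged 4101 CPM with Dex + LPS and 211 CPM with LPS, and Ptgs2 280.1 CPM with Dex + LPS and 4860 CPM with LPS. Dex + IFNγ + LPS against IFNγ + LPS called 9, 4 higher and 5 lower, beside 19.9% of all tested genes. Saa3 at 5.12 and Lcn2, which encodes lipocalin 2, at 4.15 were among the highest there. iBRD9 + LPS against LPS called all 10, 2 higher and 8 lower, with a median of -1.28. The share over all tested genes was 61.9% (30.5% lower). For dBRD9 + LPS against LPS 8 were called, all lower, with a median of -0.84. There the share over all tested genes was 16.6% (9.97% lower). Dex + dBRD9 + LPS against Dex + LPS called 9, 2 higher and 7 lower, with a median of -0.57. The share over all tested genes there was 15.8% (6.51% higher and 9.28% lower). The targets therefore did not move in one direction with Dex, and each of these counts is to be read beside the share given with it.

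The genes most like each member were found over the 21 libraries of experiment 1 by Pearson's r of log2(CPM + 1), among 7441 tested genes with a mean of at least 10 CPM. These values describe libraries that share groups and treatments and carry no test. The likeness was highest for Cebpd, with Cited2 at 0.996 and Reps1 at 0.991. Klf3 was most like Fam102b (0.991) and Ccnt1 (0.990), Cebpb most like Uap1 (0.990) and Rap2b (0.988), and Klf2 most like Tns1 (0.989) and Mertk (0.981). Klf4 was most like Calhm2 (0.989) and Smap2 (0.979), Klf6 most like Gmeb2 (0.985) and Clic4 (0.980), and Cebpg most like Ctdsp1 (0.984) and Clk1 (0.982). For Klf10 the nearest were Daglb (0.981) and Pqlc3 (0.980), for Cebpa Pqlc1 (0.975) and Rnf150 (0.974), and for Klf13 Cdk16 (0.964) and Cab39 (0.956). Among the members themselves Cebpa and Klf6 were the most opposed, with r = -0.984 over the same 21 libraries, and Cebpb and Klf3 were the most alike, with r = 0.932.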

How the data were processed

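Raw read counts per Ensembl gene were deposited by the authors in a table for each experiment, and no column was left out. The submitters' processing notes name build mm10 and the tools fastp, STAR and DESeq2, with neither their roles nor their versions. How reads were counted, against which annotation and with which strand setting is not given in the sources used here. Symbols and exon lengths came from GENCODE M21. The 10 genes and the other gene lists were chosen with earlier results of these data known.

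Groups came from the labels. Each experiment was fitted alone with a coefficient per group in edgeR 4.0.16 (R 4.3.3), after filterByExpr by group (minimum count 10, minimum total 15), with TMM scaling and quasi-likelihood F tests. P-values were adjusted by Benjamini-Hochberg over all tested genes, and a gene was called at an adjusted p under 0.05. There were 16 comparisons. CPM are counts per 1000000 of TMM-scaled totals, and per kilobase levels divide by summed exon length. All 10 genes were named. From the other lists up to 4 called genes per comparison with at least 10 CPM in the higher group could be named, and 2 most alike genes were named per member. The fit was tested on simulated data. Alternatives were RLE scaling, library totals, every gene with a count, a mean of at least 10 CPM, DESeq2 1.42.0, limma 3.58.1 (voom), only the groups compared, a replicate block, leaving out each library, and leaving out both libraries that stood apart by transcript length.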

Additional observations from a re-analysis of the deposited data

Results flagged for a closer look

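The Dex effect differed between cells with iBRD9 and cells without it for 5 of the 10 genes, by the interaction term under LPS in edgeR (adjusted p under 0.05). The interaction was 0.56 for Cebpd and 0.55 for Klf2, so that their relative increase with Dex was larger with iBRD9. It was -0.40 for Klf13, -0.39 for Cebpb and -0.35 for Cebpg, so that theirs was smaller with iBRD9. Without the first Dex + LPS library, which stood apart by transcript length, the interaction of Cebpb was -0.22 (adjusted p = 0.038). In CPM the Dex + iBRD9 + LPS libraries of Klf2 (44.3 to 45.8) lay within the range of the Dex + LPS libraries (38.5 to 51.0), and those of Klf13 (121 to 131) within that of Dex + LPS (109.9 to 138). Beside these values, 33.2% of all tested genes were called for this interaction.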

How the results depend on the processing

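Over the 16 comparisons and the 10 genes, 2207 of 2380 values under alternatives kept their direction and their side of the threshold, 43 lost a call, 43 gained one, 83 changed sign without a call in either fit, and 4 changed sign with a call in at least one. The 4 were Klf3 for Dex + iBRD9 + LPS against Dex + LPS, -0.17 without the first Dex + LPS library (-0.17 to 0.18 when leaving out each library) and -0.17 without both libraries that stood apart, Cebpb for IFNγ + LPS against vehicle with library totals (-0.48), and Klf13 for the same comparison with library totals (0). The number of genes called for dBRD9 + LPS against LPS was 3, and 5 with only the groups compared or without both libraries that stood apart. For Dex + iBRD9 + LPS against Dex + LPS it was 5, and 2 with only the groups compared. For Dex + dBRD9 + LPS against Dex + LPS it was 1, and 2 with RLE scaling, every gene with a count, the 10 CPM minimum, DESeq2, limma voom, the replicate block or both libraries left out, 3 with library totals, and 1 to 3 when leaving out each library. For the interaction of Dex and dBRD9 under LPS it was 0, and 0 to 1 when leaving out each library. For dBRD9 + IFNγ + LPS against IFNγ + LPS it was 1, and 0 to 1 when leaving out each library. For Dex + dBRD9 + IFNγ + LPS against Dex + IFNγ + LPS it was 0, and 1 with every gene with a count or only the groups compared. For the interaction of Dex and dBRD9 under IFNγ + LPS it was 0, and 1 with every gene with a count or DESeq2. Calls over all tested genes moved too. For dBRD9 + LPS against LPS they were 841 higher and 1262 lower of 12662. With only the groups compared they were 1470 and 1835 of 11691, and without both libraries that stood apart 1634 and 1831 of 12843. For Dex + iBRD9 + LPS against Dex + LPS they were 2110 and 2280 of 12662. With only those groups they were 963 and 1320 of 11476. The cause of these differences was not tested. Library totals moved the split of all called genes for IFNγ + LPS against vehicle to 2632 higher and 7819 lower, against 4371 and 4745 with TMM, and the median to -0.758, against -0.11. They also moved it by over 10 percentage points in these comparisons, to 5193 higher and 3032 lower for iBRD9 + LPS against LPS (3979 and 3865 with TMM, with the median at 0.144, against 0.01), 1402 and 1039 for dBRD9 + LPS against LPS (841 and 1262), 3089 and 1656 for Dex + iBRD9 + LPS against Dex + LPS (2110 and 2280), 1598 and 843 for Dex + dBRD9 + LPS against Dex + LPS (824 and 1175), 4621 and 2773 for Dex + dBRD9 + LPS against dBRD9 + LPS (3680 and 3384), 1703 and 944 for Dex + IFNγ + LPS against IFNγ + LPS (1429 and 1226), 70 and 134 for the degrader over IFNγ + LPS alone (109 and 134), and 2613 and 1515 for Dex + dBRD9 + IFNγ + LPS against dBRD9 + IFNγ + LPS (1858 and 1917, and 1421 and 2218 with RLE scaling).

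The labels do not say what libraries with the same replicate number share. Same-numbered libraries of different groups had a median correlation of deviations of 0.00747 over 63 pairs in experiment 1. Of these, 8 were over 0.1, and the highest was 0.541. For differently numbered libraries the median was -0.00383 over 126 pairs, with 5 over 0.1 and a highest value of 0.278. With 2 libraries per group in experiment 2, both deviations from a group mean mirror each other. The 20 same-numbered pairs there (median -0.00829, 2 over 0.1) are therefore not separate observations. Whether same-numbered libraries share an origin was not tested. With the replicate block 158 of 160 values kept their side of the threshold, Klf2 for Dex + dBRD9 + LPS against Dex + LPS was called (-0.24, adjusted p = 0.043) and Klf10 for Dex + dBRD9 + IFNγ + LPS against dBRD9 + IFNγ + LPS was not (0.57, adjusted p = 0.059). With 2 libraries per group, experiment 2 resolves smaller differences less well, as its coefficient of variation between libraries (10.6%) was above that of experiment 1 (6.79%).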
